A study of Mus musculus with 4 samples.

Results

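The inner medullary collecting duct (IMCD) is where the kidney makes its final adjustment of urine, and the epithelial cells used here were an immortalized IMCD line of strain C57B/l with floxed Tgfbr2, the gene for the TGF-β type II receptor TβRII. RNA-Seq was done on Cre-treated cells (TβRII-/-, exposed to adeno-Cre) grown in serum-replete medium or serum-starved for 4 days, and on untreated floxed cells (TβRIIfl/fl) in the same pair of media. The serum response of the Cre-treated cells is described here: 2 of the 4 libraries, taken as the serum-replete library over the serum-starved one, with the 2 floxed libraries beside them. Each condition was 1 library, so there is no replicate, no SD and no test, and every difference describes these libraries only. The line carries SV40, and the floxed cells were not exposed to adeno-Cre, so receptor loss and exposure to the virus or to Cre cannot be told apart.

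Serum carries growth factors, lipoproteins, lysophospholipids and hormones. Withdrawing it lets many cultured cells leave the cell cycle, and giving it back drives entry into S phase through cyclins, CDKs and E2F factors, with mitotic genes following under the DREAM and B-Myb–FoxM1 complexes that read CHR elements (cell cycle genes homology regions). Cells also take cholesterol from serum lipoproteins, and without it SREBP-2 is cleaved and turns on the genes of sterol synthesis through SRE elements. TGF-β is carried in serum as well, mostly in a latent form, and signals through TβRII to SMAD2 and SMAD3.

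Promoter windows are shown for 7 genes of the lists furthest above and below the rest. In each list these were the genes with the largest ratios in size among those whose window held the element. The element thus took part in choosing them, and genes with larger ratios but no match are not shown. Each window spans 250 bases before to 50 bases after a start annotated by RefSeq (GRCm38.p6, the mm10 assembly), read 5′ to 3′ on the gene's strand, and positions are counted from that start. For the mitotic genes the capitals mark a CHR (TTTGAA or TTCGAA, either strand). Prc1 lies at chr7:80294201-80294500 on the plus strand with its CHR at -5, Ccnf at chr17:24251360-24251659 on the minus strand with CHRs at -130 and -14, and Kif23 at chr9:61946750-61947049 on the minus strand with its CHR at 2.
Prc1: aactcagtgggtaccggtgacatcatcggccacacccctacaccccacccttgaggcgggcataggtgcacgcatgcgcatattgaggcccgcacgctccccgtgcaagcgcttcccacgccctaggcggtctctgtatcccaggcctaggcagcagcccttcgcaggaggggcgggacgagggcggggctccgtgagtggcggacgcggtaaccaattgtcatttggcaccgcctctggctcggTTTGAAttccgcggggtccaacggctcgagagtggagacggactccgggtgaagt
Ccnf: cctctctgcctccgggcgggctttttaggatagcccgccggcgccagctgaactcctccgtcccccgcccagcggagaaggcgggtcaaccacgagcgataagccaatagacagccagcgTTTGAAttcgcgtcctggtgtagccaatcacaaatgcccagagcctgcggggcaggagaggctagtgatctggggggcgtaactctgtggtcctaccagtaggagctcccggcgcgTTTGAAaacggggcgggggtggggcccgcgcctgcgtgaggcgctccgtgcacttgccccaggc
Kif23: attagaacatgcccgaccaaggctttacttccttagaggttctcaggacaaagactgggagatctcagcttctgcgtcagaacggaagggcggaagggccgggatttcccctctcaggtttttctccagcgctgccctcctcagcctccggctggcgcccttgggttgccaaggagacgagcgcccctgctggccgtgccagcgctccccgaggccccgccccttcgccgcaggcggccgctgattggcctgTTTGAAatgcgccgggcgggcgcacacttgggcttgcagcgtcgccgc
A CHR was present in the windows of 31 of 41 G2/M and mitosis genes that had one (75.6%), against 19.4% of all 27025 genes with a window and 13.2% of the 8355 among them that were measured in Cre-treated cells. CCAAT, on either strand, was in 30 of the 41 windows (73.2%), against 37.9% and 39.5%. No part of this comparison was tested, and a match is a run of letters, not a shown binding site.

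For the DNA replication genes the capitals mark an E2F element (TTTGGCGC, TTTCCCGC, TTTCGCGC or TTTGCCGC, either strand), and for the sterol genes they mark an SRE (TCACNCCAC, either strand). Mcm5 is at chr8:75109259-75109558 on the plus strand with overlapping E2F matches at -153 and -149, Mcm3 at chr1:20820263-20820562 on the minus strand with matches at 19 and 38, and Cdc6 at chr11:98907901-98908200 on the plus strand with 1 match at -138. Hmgcs1 is at chr13:119690101-119690400 on the plus strand, with its SRE at -137.
Mcm5: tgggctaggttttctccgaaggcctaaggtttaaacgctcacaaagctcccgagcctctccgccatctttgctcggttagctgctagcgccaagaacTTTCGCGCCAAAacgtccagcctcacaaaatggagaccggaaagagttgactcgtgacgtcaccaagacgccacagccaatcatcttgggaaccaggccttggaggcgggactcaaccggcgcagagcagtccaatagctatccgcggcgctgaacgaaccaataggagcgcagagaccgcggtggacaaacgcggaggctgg
Mcm3: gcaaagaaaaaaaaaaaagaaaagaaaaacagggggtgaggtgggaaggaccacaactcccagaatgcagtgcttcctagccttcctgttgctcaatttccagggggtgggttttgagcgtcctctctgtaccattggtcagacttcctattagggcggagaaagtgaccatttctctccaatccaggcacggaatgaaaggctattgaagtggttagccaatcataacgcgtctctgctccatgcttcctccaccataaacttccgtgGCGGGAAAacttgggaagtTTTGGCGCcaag
Cdc6: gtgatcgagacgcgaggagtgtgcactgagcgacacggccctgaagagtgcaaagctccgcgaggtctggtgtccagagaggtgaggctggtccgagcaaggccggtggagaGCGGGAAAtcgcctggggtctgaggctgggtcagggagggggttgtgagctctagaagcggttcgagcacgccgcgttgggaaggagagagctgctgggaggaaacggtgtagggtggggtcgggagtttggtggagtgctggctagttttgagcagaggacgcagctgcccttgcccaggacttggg
Hmgcs1: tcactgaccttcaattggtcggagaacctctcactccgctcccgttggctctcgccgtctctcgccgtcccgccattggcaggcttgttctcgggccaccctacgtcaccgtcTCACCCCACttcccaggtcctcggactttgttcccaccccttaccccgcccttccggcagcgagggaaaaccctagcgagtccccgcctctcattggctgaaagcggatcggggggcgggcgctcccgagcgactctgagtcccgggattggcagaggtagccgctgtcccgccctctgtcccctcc
An E2F element was in 11 of 31 DNA replication windows (35.5%), against 2.32% of all windows and 4.48% of those of measured genes. An SRE was in 1 of 16 windows of cholesterol genes (6.25%), that of Hmgcs1, against 1.22% and 1.02%, so these letters were not what most of the sterol list had in common in this window. The C/EBP-ATF element TTGCATCA, a motif chosen after the expression values were seen, was in 5 of 24 windows of ATF4 and amino acid stress genes (20.8%), against 0.929% and 0.575%.

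Expression is given for 37981 gene loci in FPKM, a read level corrected for transcript length and for library size. The authors' software scaled the libraries of each medium together and apart from the other medium, so a serum ratio crosses 2 separately scaled tables. For that reason log2((FPKM + 1) serum-replete / (FPKM + 1) serum-starved) was centred on its median over the genes measured, those that reached 1 FPKM with or without serum, which was -0.13 in Cre-treated and -0.02 in floxed cells. All ratios below are these centred log2 ratios unless said otherwise, so the median of all measured genes is 0, and the added 1 shrinks ratios of weakly expressed genes. A gene is counted as higher or lower with serum at a ratio of at least 2-fold, a size and not a test. Of 12327 genes measured in Cre-treated cells, 887 were at least 2-fold higher (7.20%) and 775 at least 2-fold lower (6.29%), while the lower and upper quartiles of all ratios were -0.34 and 0.37. Of 12583 measured in floxed cells, 500 were at least 2-fold higher (3.97%) and 336 at least 2-fold lower (2.67%). The genes at least 2-fold higher in both cells numbered 91, which is 10.3% of those in Cre-treated and 18.2% of those in floxed cells. Those at least 2-fold lower in both numbered 127, which is 16.4% and 37.8%. Without centring, the share of calls that were higher in Cre-treated cells was 42.5% instead of 53.4%.

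The labels were checked first. Tgfbr2 (chromosome 9, 116087695 to 116175363) was 57.0 FPKM in serum-replete and 73.7 FPKM in serum-starved Cre-treated cells, against 163 and 143 FPKM in floxed cells. Reads of the whole gene enter these values, so excision of the floxed exon cannot be read from them. Of the markers of collecting duct principal cells, the water channel gene Aqp2 was listed at 0 in all 4 libraries, and 4 of 15 markers reached 1 FPKM in any of them. The kidney epithelial factor Pax8 (128 and 129 FPKM) and Tfcp2l1, a collecting duct transcription factor (94.0 and 97.8 FPKM), were present in serum-replete and serum-starved Cre-treated cells at similar levels. Krt8, the partner of the simple epithelial keratin Krt18, was 0.229 and 0.133 FPKM in these cells, against 252 and 142 FPKM in floxed cells. Summed marker levels of leukocytes were 21.2 FPKM in serum-replete and 21.5 FPKM in serum-starved Cre-treated cells. Those of endothelium were 16.7 and 10.4 FPKM, and those of fibroblasts 4.92 and 4.80 FPKM. The endothelial Cdh5 and the lymphocyte genes Cd3e and Cd4 were listed at 0. Only 2 of 10 endothelial and 3 of 15 leukocyte markers were at 0 in all 4 libraries. The endothelial Plvap (7.54 and 1.85 FPKM, ratio 1.71) and the leukocyte marker Cd68 (11.8 and 3.78 FPKM, ratio 1.55) were at least 2-fold higher with serum in Cre-treated cells. Urothelial and mesothelial markers summed to 148 and 272 FPKM in Cre-treated cells, against 15.7 and 16.9 FPKM in floxed cells. Of these 10 markers, 3 reached 1 FPKM in any library and 3 others were listed at 0 in all 4. The 3 that reached it had medians of 8.73 and 37.8 FPKM in Cre-treated cells, so 1 gene made up most of each sum there. All 3 were higher in Cre-treated than in floxed cells in both media. Upk3b was at 3.73 and 37.8 FPKM (ratio -2.90) in Cre-treated cells, against 2.46 and 8.28 FPKM in floxed cells. Proximal tubule markers summed to 7.71 and 21.7 FPKM in Cre-treated cells, against 54.6 and 101 FPKM in floxed cells. Of these 14 markers, 4 reached 1 FPKM in any library and 6 were listed at 0 in all 4. Lrp2 went against the sums, at 5.61 and 20.4 FPKM in Cre-treated cells (ratio -1.56) and 2.185 and 4.19 FPKM in floxed cells. The part of other cells in the results below was not tested, and fewer cells expressing a gene cannot be told apart from less RNA per cell.

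Genes of cell division were the group furthest above the rest with serum in Cre-treated cells. Of 49 measured G2/M and mitosis genes, 48 were at least 2-fold higher and none was lower, with a median ratio of 2.16. The same list in floxed cells had 1 of 49 at least 2-fold higher and a median of 0.21. In 48 of the 49 genes the ratio of Cre-treated cells was above that of floxed cells, by a median of 2.04. With 1 library a condition, the difference between the cells was not tested. The levels show where it lay. The median member was at 58.5 FPKM in serum-replete and 13.5 FPKM in serum-starved Cre-treated cells, against 15.8 and 15.1 FPKM in floxed cells, so the serum-replete Cre-treated library stood apart and the other 3 were alike. Within a table, where no centring is needed, the median log2 ratio of Cre-treated over floxed cells was 1.81 in serum-replete and -0.11 in serum-starved medium.

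**Figure D1:**
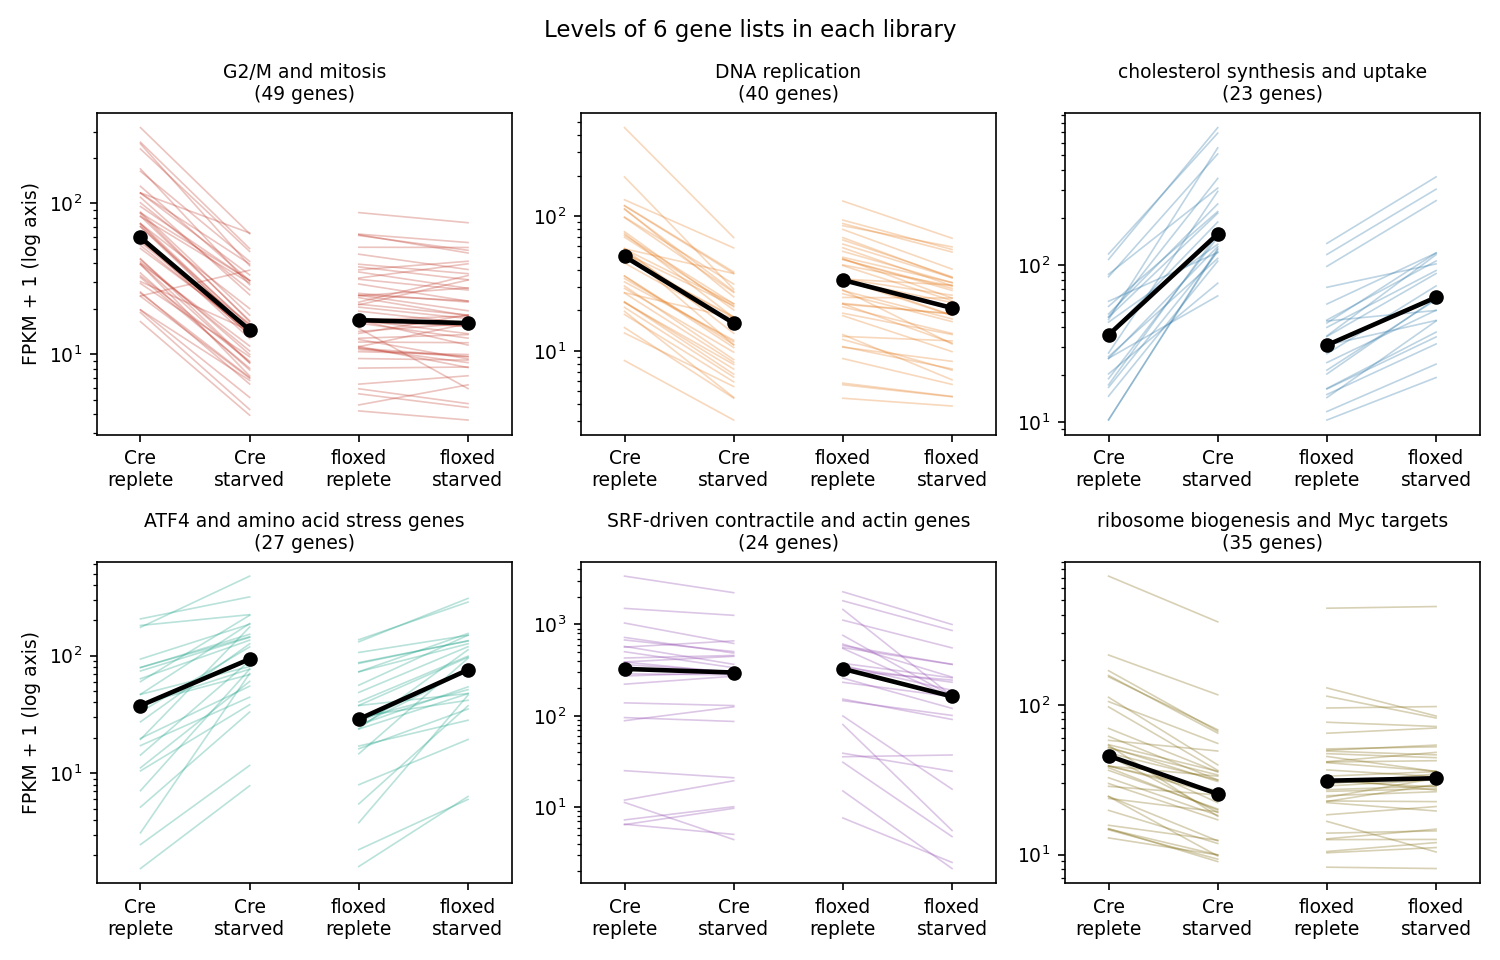
FPKM + 1 on a log axis in the 4 libraries for the measured members of 6 gene lists, with 1 thin line for each gene joining the serum-replete to the serum-starved library of the same cells and black points at the list's median. The G2/M genes drop steeply toward the serum-starved library in Cre-treated cells and run nearly level in floxed cells, the sterol genes climb in both, and the SRF-driven genes differ mainly in floxed cells.

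Prc1, which bundles the microtubules of the spindle midzone, had the largest ratio among the mitotic genes. It was 248 FPKM in serum-replete and 37.7 FPKM in serum-starved Cre-treated cells, a ratio of 2.82, against 61.1 and 45.9 FPKM in floxed cells. Birc5 (survivin), a subunit of the chromosomal passenger complex, was 169 and 27.9 FPKM, a ratio of 2.68, against 37.0 and 30.2 FPKM. Ccnf (cyclin F), the substrate subunit of an SCF ubiquitin ligase, was 38.5 and 6.18 FPKM, a ratio of 2.59. Kif23, a kinesin needed for cytokinesis, was 84.7 and 15.5 FPKM, a ratio of 2.51. The core mitotic kinase Cdk1 was 318 and 62.1 FPKM (ratio 2.47), and its partner Ccnb1 (cyclin B1) was 69.2 and 14.6 FPKM (ratio 2.30). The proliferation marker Mki67 was 57.4 and 11.7 FPKM, a ratio of 2.33, against 15.8 and 10.5 FPKM in floxed cells. Pttg1 (securin), the inhibitor of separase, was the one member below 2-fold, at 23.4 FPKM in serum-replete and 35.1 FPKM in serum-starved Cre-treated cells, a ratio of -0.43. Mybl2 (B-Myb), a factor of mitotic transcription, was the single member at least 2-fold higher in floxed cells, with a ratio of 1.35 there and 2.16 in Cre-treated cells.

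DNA replication genes were higher with serum in Cre-treated cells, and few of them passed 2-fold in floxed cells. At least 2-fold higher were 38 of 40 in Cre-treated cells, with a median of 1.82, and 3 of 40 in floxed cells, with a median of 0.72. All 40 ratios in Cre-treated cells were above those in floxed cells, by a median of 1.05. Tk1, the thymidine kinase of S phase, was 195 FPKM in serum-replete and 27.7 FPKM in serum-starved Cre-treated cells, a ratio of 2.90, against 65.6 and 34.5 FPKM in floxed cells. Rrm2, the S phase subunit of ribonucleotide reductase, was 454 and 68.4 FPKM (ratio 2.84), against 129 and 67.6 FPKM. The primase subunit Prim1 had a ratio of 2.45 and thymidylate synthase (Tyms) one of 2.30. The MCM helicase genes Mcm2 to Mcm7 lay between 1.77 (Mcm6) and 2.21 (Mcm5) in Cre-treated cells, and between 0.54 (Mcm7) and 1.01 (Mcm4) in floxed cells. Gins4 (0.75) and Rfc5 (0.74) were the members under 2-fold. Homologous recombination and Fanconi genes, which repair broken and stalled forks, were at least 2-fold higher for 16 of 21 in Cre-treated cells (median 1.55) and for 1 of 21 in floxed cells (median 0.50). Rad51ap1 (29.8 and 7.43 FPKM, ratio 2.00), Fanci (ratio 1.90) and Fancb (ratio 1.85) were among the largest ratios.

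Regulators of the G1 to S step were less uniform. In Cre-treated cells 10 of 20 were at least 2-fold higher and 1 was lower, with a median of 1.14, against 1 and 1 of 20 in floxed cells, with a median of 0.47. Ccna2 (cyclin A2) was 209 FPKM in serum-replete and 35.4 FPKM in serum-starved Cre-treated cells, a ratio of 2.66, against 48.4 and 41.9 FPKM in floxed cells. Cdca7 (2.37), Ccne2 (cyclin E2, 2.29) and the E2F repressor E2f8 (2.22) followed. The D-type cyclins, which bind CDK4 and CDK6 and link growth factors to RB, did not move together. Ccnd1 (cyclin D1) was 168 FPKM in serum-replete and 156 FPKM in serum-starved Cre-treated cells, a ratio of 0.24, against 38.6 and 122 FPKM in floxed cells, a ratio of -1.62. Ccnd2 was 13.9 and 57.4 FPKM in Cre-treated cells, a ratio of -1.84, and Ccnd3 was 88.3 and 56.4 FPKM, a ratio of 0.77.

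CDK inhibitors were split. Cdkn2d (p19) and Cdkn2c (p18), inhibitors of CDK4 and CDK6, were at least 2-fold higher with serum in Cre-treated cells, at 31.5 and 11.4 FPKM (ratio 1.52) and at 88.6 and 39.6 FPKM (ratio 1.28). Their ratios in floxed cells were 0.01 and 0.06. Cdkn1a (p21), a p53 target that inhibits CDK2, was 139 FPKM in serum-replete and 185 FPKM in serum-starved Cre-treated cells (ratio -0.28), against 23.0 and 50.9 FPKM in floxed cells (ratio -1.09). Cdkn1b (p27) was 20.2 and 28.8 FPKM, a ratio of -0.36. Cdkn2a (p16 and p19Arf) and Cdkn2b (p15) were listed at 0 in both Cre-treated libraries, so no serum ratio can be given, and in floxed cells Cdkn2a was 4.52 and 5.94 FPKM and Cdkn2b 0.871 and 2.45 FPKM. The kinase gene Cdk15 was 1.21 and 4.46 FPKM in Cre-treated cells, a ratio of -1.17. The homeobox gene Prrx2 was listed at 0 in serum-replete and at 0.0401 FPKM in serum-starved Cre-treated cells, against 8.44 and 0.742 FPKM in floxed cells.

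Ribosome biogenesis genes, many of them driven by Myc, were higher with serum in Cre-treated cells and not in floxed cells. At least 2-fold higher were 16 of 35 in Cre-treated cells, with a median of 0.97 and all 35 ratios above 0, against none of 35 in floxed cells, with a median of -0.02. Dkc1, the pseudouridine synthase of H/ACA snoRNPs, was 52.7 FPKM in serum-replete and 17.0 FPKM in serum-starved Cre-treated cells, a ratio of 1.71, against 31.3 and 25.9 FPKM in floxed cells. Nhp2, in the same particle, was 111 and 38.7 FPKM (ratio 1.63), spermidine synthase (Srm) was 95.8 and 35.5 FPKM (ratio 1.54), and the snoRNP protein Nop56 was 168 and 65.5 FPKM (ratio 1.48). Nucleolar Ncl (153 and 67.1 FPKM, ratio 1.31) and Npm1 (721 and 357 FPKM, ratio 1.15) had ratios of -0.01 and -0.02 in floxed cells. Myc itself was at 42.0 FPKM in serum-replete and 46.5 FPKM in serum-starved Cre-treated cells, a ratio of -0.01. The mitochondrial chaperonins Hspe1 (201 and 99.6 FPKM, ratio 1.14) and Hspd1 (146 and 75.4 FPKM, ratio 1.08) were the members of the heat shock list past 2-fold, and Hspd1 fell under 2-fold without centring.

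**Figure D2:**
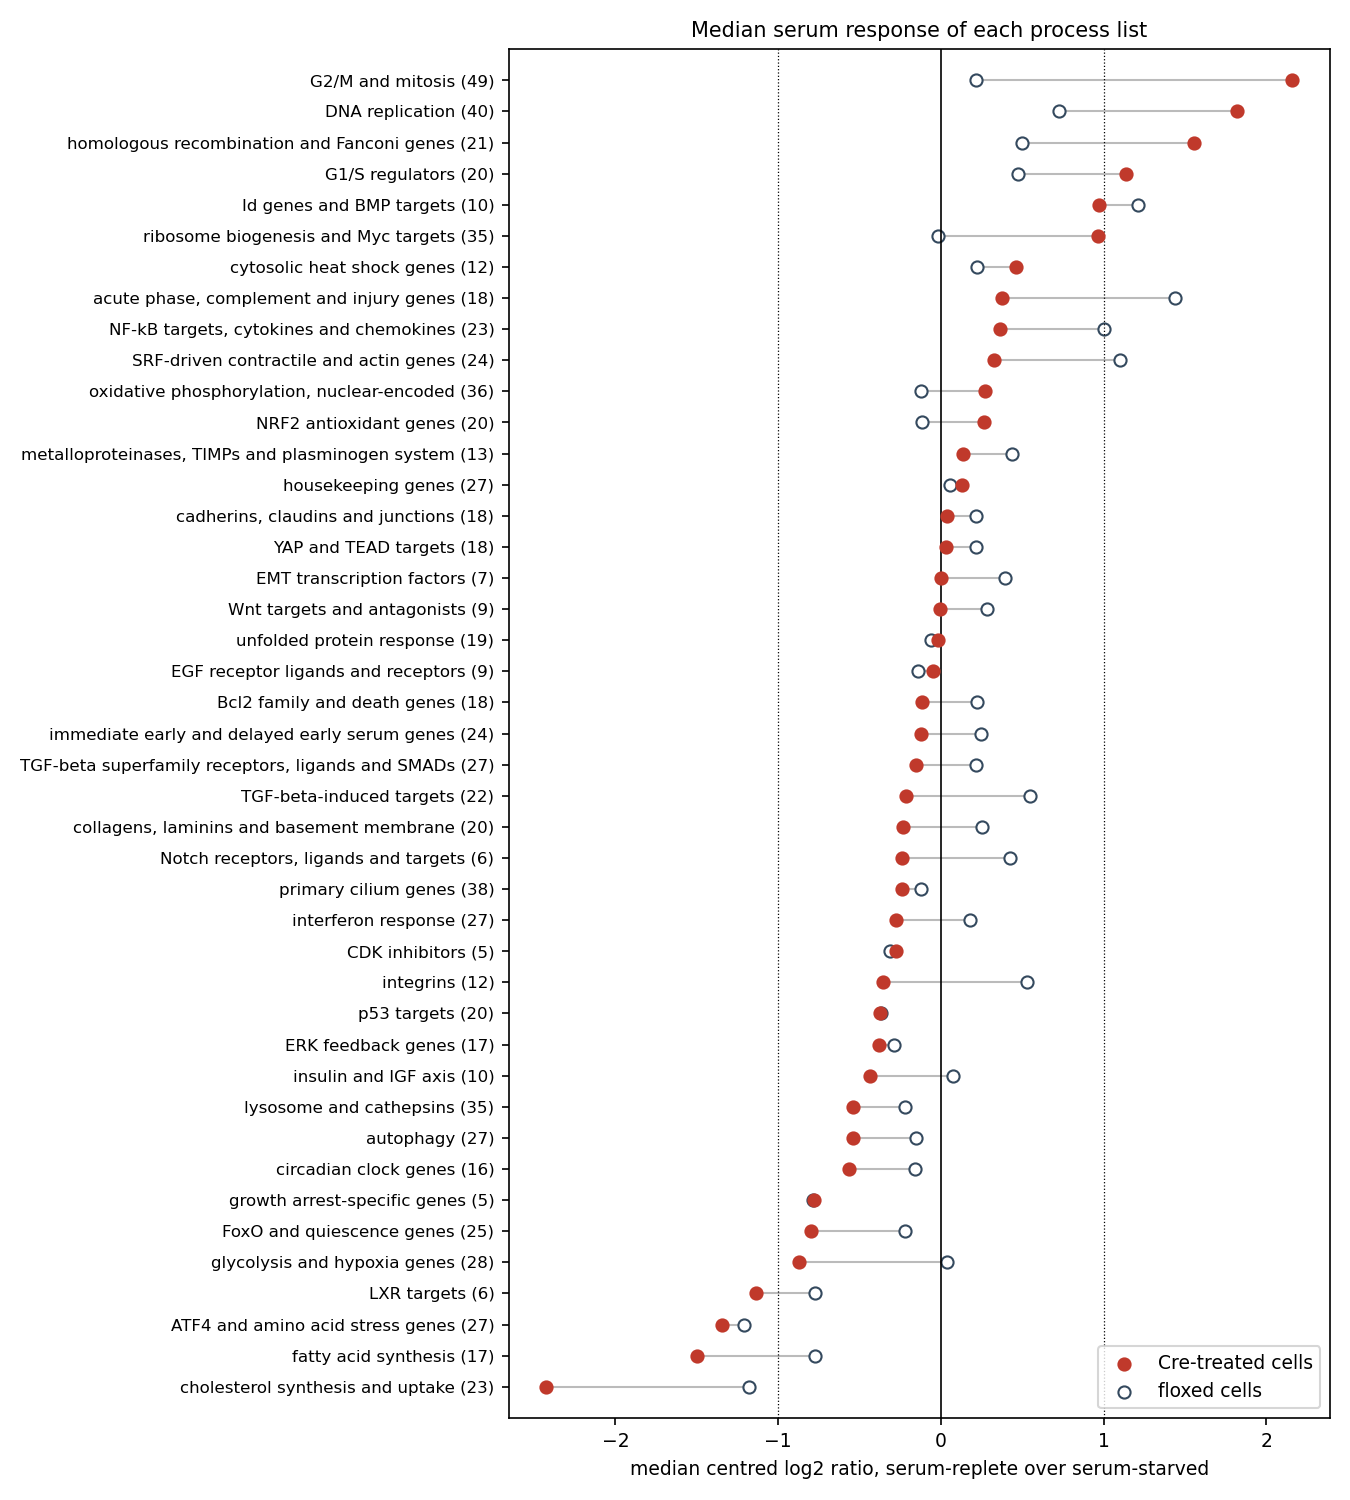
Median centred log2 ratio of serum-replete over serum-starved libraries for each process list with at least 5 genes measured in Cre-treated cells, with that number in brackets, filled red points for Cre-treated and open points for floxed cells, and dotted lines at 2-fold. Cell division lists stand at the top for Cre-treated cells (2.16 for G2/M and mitosis), and cholesterol synthesis and uptake stands at the bottom for them (-2.42). In floxed cells ATF4 and amino acid stress genes are lowest (-1.21), next to cholesterol synthesis and uptake (-1.18).

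The genes furthest below the rest with serum in Cre-treated cells were those of sterol synthesis. Of 23 measured cholesterol synthesis and uptake genes in Cre-treated cells, 22 were at least 2-fold lower with serum and none was higher, with a median of -2.42. In floxed cells 17 of 24 were at least 2-fold lower, with a median of -1.18. The ratio of Cre-treated cells was below that of floxed cells for all 23 genes measured in both, by a median of 1.28. Here the serum-starved library was the one apart. The median member was at 34.8 FPKM in serum-replete and 156 FPKM in serum-starved Cre-treated cells, against 29.8 and 61.1 FPKM in floxed cells, and the median log2 ratio of Cre-treated over floxed cells within a table was -0.02 in serum-replete and 1.36 in serum-starved medium.

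Insig1, which holds SREBPs in the endoplasmic reticulum and is itself their target, was 43.8 FPKM in serum-replete and 555 FPKM in serum-starved Cre-treated cells, a ratio of -3.50, against 34.3 and 115 FPKM in floxed cells. The pathway enzymes Mvd (9.32 and 124 FPKM, ratio -3.46) and Lss (26.5 and 293 FPKM, ratio -3.29) were also among the lowest. Hmgcs1, the gene with the SRE shown, was 82.9 and 508 FPKM (ratio -2.47), against 96.8 and 255 FPKM in floxed cells. Srebf2, which encodes SREBP-2, was the member short of 2-fold, with 57.6 and 119 FPKM and a ratio of -0.90.

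Fatty acid synthesis genes went the same way. At least 2-fold lower with serum were 10 of 17 in Cre-treated cells (median -1.50) and 6 of 16 in floxed cells (median -0.77). Acss2, which makes acetyl-CoA from acetate, was 4.29 FPKM in serum-replete and 81.6 FPKM in serum-starved Cre-treated cells, a ratio of -3.83, against 6.08 and 14.0 FPKM in floxed cells. The stearoyl-CoA desaturases Scd1 (6.46 and 109 FPKM, ratio -3.75) and Scd2 (145 and 1361 FPKM, ratio -3.09) and the elongase Elovl6 (12.7 and 58.9 FPKM, ratio -2.00) were the others furthest down. Fatty acid synthase, Fasn, was 53.4 and 172 FPKM (ratio -1.54). Of targets of LXR, the oxysterol receptor, 3 of 6 were at least 2-fold lower in Cre-treated and 3 of 8 in floxed cells. The cholesterol exporter Abca1 was 7.75 and 32.6 FPKM in Cre-treated cells (ratio -1.81), against 7.82 and 49.8 FPKM in floxed cells (ratio -2.50).

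Amino acid stress genes were lower with serum to a similar extent in both cells. Of 27 targets of ATF4, the transcription factor of the integrated stress response, 17 were at least 2-fold lower in Cre-treated cells (median -1.35) and 18 in floxed cells (median -1.21), and none was higher in either. Trib3, a pseudokinase gene (chromosome 2, 152337425 to 152344060), was 2.11 FPKM in serum-replete and 69.5 FPKM in serum-starved Cre-treated cells, a ratio of -4.37, against 2.79 and 45.1 FPKM in floxed cells, a ratio of -3.58. Chac1, which degrades glutathione, was 6.09 and 75.7 FPKM (ratio -3.30), and the factor gene Atf5 was 18.4 and 174 FPKM (ratio -3.04). Ddit3 (CHOP) was 13.3 and 89.3 FPKM in Cre-treated cells (ratio -2.53), against 13.6 and 94.1 FPKM in floxed cells (ratio -2.68). Ddit4 (REDD1), an inhibitor of mTORC1, was 4.14 and 32.2 FPKM (ratio -2.56), against 16.01 and 27.2 FPKM in floxed cells (ratio -0.71). Of this list Psat1, a serine synthesis gene, differed most in the other direction, at 180 and 222 FPKM in Cre-treated cells (ratio -0.17), against 36.7 and 95.9 FPKM in floxed cells (ratio -1.34). Psph, of the same pathway, was at 10.1 and 59.4 FPKM (ratio -2.31), against 15.1 and 34.2 FPKM (ratio -1.10). Chaperones of the unfolded protein response as a list had a median of -0.02, with Herpud1 (21.0 and 122 FPKM, ratio -2.35) lower and Pdia4 (139 and 47.3 FPKM, ratio 1.67) higher.

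Hypoxia and glycolysis genes were lower with serum in Cre-treated cells and near the middle in floxed cells. Of 28 measured in Cre-treated cells, 12 were at least 2-fold lower and 1 was higher, with a median of -0.87. Of 26 in floxed cells, 1 was lower and 2 were higher, with a median of 0.04. Bnip3, a mitophagy receptor gene induced by HIF-1, was 19.6 FPKM in serum-replete and 137 FPKM in serum-starved Cre-treated cells, a ratio of -2.62, against 28.9 and 29.2 FPKM in floxed cells. Pdk1, a pyruvate dehydrogenase kinase gene, was 7.96 and 52.9 FPKM (ratio -2.46), against 9.57 and 10.5 FPKM. Ndrg1 was lower in both, at 55.7 and 351 FPKM (ratio -2.50) and, in floxed cells, 91.4 and 275 FPKM (ratio -1.56). The prolyl hydroxylase P4ha2 had a ratio of -1.93 in Cre-treated and -0.01 in floxed cells. Adm (adrenomedullin) was the member higher with serum, at 8.12 and 2.38 FPKM (ratio 1.57). Within a table, the median log2 ratio of Cre-treated over floxed cells for this list was 0.25 with serum and 1.16 without it.

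Quiescence genes followed the same order. Of 25 FoxO and quiescence genes, 11 were at least 2-fold lower with serum in Cre-treated cells (median -0.80) and 1 in floxed cells (median -0.22). Besides Ddit4, the p53-inducible Trp53inp1 was 7.30 and 47.2 FPKM (ratio -2.40), the Max partner Mxd4 was 7.41 and 38.0 FPKM (ratio -2.08), and Trp53inp2 was 31.2 and 130 FPKM (ratio -1.89). In floxed cells these stood at -1.03, -0.22 and 0.14. The 1 member at least 2-fold higher with serum in Cre-treated cells was Txnip, at 95.6 and 50.5 FPKM (ratio 1.04), against a ratio of 0.61 in floxed cells. The p53 targets had 6 of 20 at least 2-fold lower in Cre-treated cells (30%, against 6.29% of all genes) and none higher, with a median of -0.38. In floxed cells 3 were lower and 2 higher, with a median of -0.37. After Trp53inp1 the lowest in Cre-treated cells were Sesn2 (-1.74), Gadd45a (-1.56) and Bbc3 (-1.40), while Mdm2 (55.9 and 65.1 FPKM, ratio -0.08) and Bax (163 and 229 FPKM, ratio -0.35) were within 2-fold. Autophagy genes had 4 of 27 at least 2-fold lower in Cre-treated cells (14.8%, against 6.29% of all genes) and none higher, with a median of -0.54. Among those lower were Map1lc3b (23.5 and 73.7 FPKM, ratio -1.48), whose protein LC3B coats autophagosomes, and the receptor gene Sqstm1 (339 and 1024 FPKM, ratio -1.46). Lysosomal genes had a median of -0.54 over 35 genes. Of these, 2 were at least 2-fold lower (5.71%, against 6.29% of all genes) and 1 was higher (2.86%, against 7.20%). The sialidase Neu1 was at 52.7 and 174 FPKM (ratio -1.57), and Cd68 went the other way at 11.8 and 3.78 FPKM (ratio 1.55). The CLEAR core TCACGTGA was in 3 of 27 promoter windows of lysosomal genes (11.1%), against 1.01% of all windows and 2.13% of those of measured genes.

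Id genes, immediate targets of BMP receptors and SMAD1 and SMAD5 that block differentiation factors, held the largest ratio among protein-coding genes of unshared loci that reached 5 FPKM and had no value listed at 0. Id3 (chromosome 4, 136143822 to 136145392) was 155 FPKM in serum-replete and 1.97 FPKM in serum-starved Cre-treated cells, a ratio of 5.85, against 96.9 and 5.27 FPKM in floxed cells, a ratio of 3.99. Id1 was 128 and 18.4 FPKM (ratio 2.86), against 125 and 25.1 FPKM (ratio 2.29). Id2 was 97.6 and 29.3 FPKM (ratio 1.83), against 129 and 96.3 FPKM (ratio 0.44), and Id4 was 5.51 and 1.47 FPKM (ratio 1.53). In all, 5 of 10 genes of this list were at least 2-fold higher in Cre-treated cells and 4 of 8 in floxed cells, with medians of 0.97 and 1.21. The inhibitory SMADs of the pathway were within 2-fold, with Smad6 at 14.97 and 10.9 FPKM (ratio 0.56) and Smad7 at 24.3 and 21.4 FPKM (ratio 0.31).

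Several of the other genes with the highest ratios encode secreted proteins. Slpi, a leukocyte protease inhibitor, was 38.4 FPKM in serum-replete and 1.01 FPKM in serum-starved Cre-treated cells, a ratio of 4.43, against 33.2 and 1.07 FPKM in floxed cells. The chemokine gene Ccl5 was 18.5 and 0.111 FPKM (ratio 4.27), against 6.50 FPKM and a listed 0. Cxcl10 was 52.1 and 5.07 FPKM (ratio 3.26), against 9.41 and 2.52 FPKM, and the platelet chemokine Ppbp was 28.9 and 1.69 FPKM (ratio 3.61), against 45.0 and 4.80 FPKM. Timp1, an inhibitor of metalloproteinases, was 187 and 22.0 FPKM (ratio 3.17), against 126 and 24.0 FPKM. These 5 genes were higher with serum in both cells. Fxyd5, a regulator of the sodium pump, was 57.6 and 3.57 FPKM (ratio 3.82), against 12.5 and 2.02 FPKM, and Sprr1a, a cornified envelope gene, was 449 and 49.6 FPKM (ratio 3.28), against 139 and 1.78 FPKM.

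Complement factor C3 and the tubular injury marker Lcn2 were higher with serum in both cells but reached very different levels. C3 was 37.2 FPKM in serum-replete and 3.25 FPKM in serum-starved Cre-treated cells (ratio 3.30), against 613 and 32.4 FPKM in floxed cells (ratio 4.22). Lcn2 was 63.2 and 7.61 FPKM (ratio 3.03), against 613 and 12.8 FPKM (ratio 5.50). Clu (clusterin) was 895 and 222 FPKM (ratio 2.14), against 2282 and 434 FPKM (ratio 2.42). As a list, acute phase, complement and injury genes had 7 of 18 at least 2-fold higher in Cre-treated cells (38.9%, against 7.20% of all genes). None was lower there, and the median was 0.37. In floxed cells 13 of 20 were at least 2-fold higher, where 3.97% of all genes were, with a median of 1.44. Socs3, the feedback inhibitor of gp130 signaling, differed in sign, at 6.99 and 14.6 FPKM in Cre-treated cells (ratio -0.83) and 48.2 and 7.27 FPKM in floxed cells (ratio 2.59). NF-κB targets, cytokines and chemokines had 6 of 23 at least 2-fold higher in Cre-treated cells (26.1%, against 7.20% of all genes), with a median of 0.36. In floxed cells 12 of 24 were, with a median of 1.002. Ccl2 was at similar ratios, 115 and 47.4 FPKM (1.40) against 320 and 125 FPKM (1.37), whereas Tnfaip3 (A20), an NF-κB feedback gene, had ratios of 0.07 and 1.64.

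**Figure D3:**
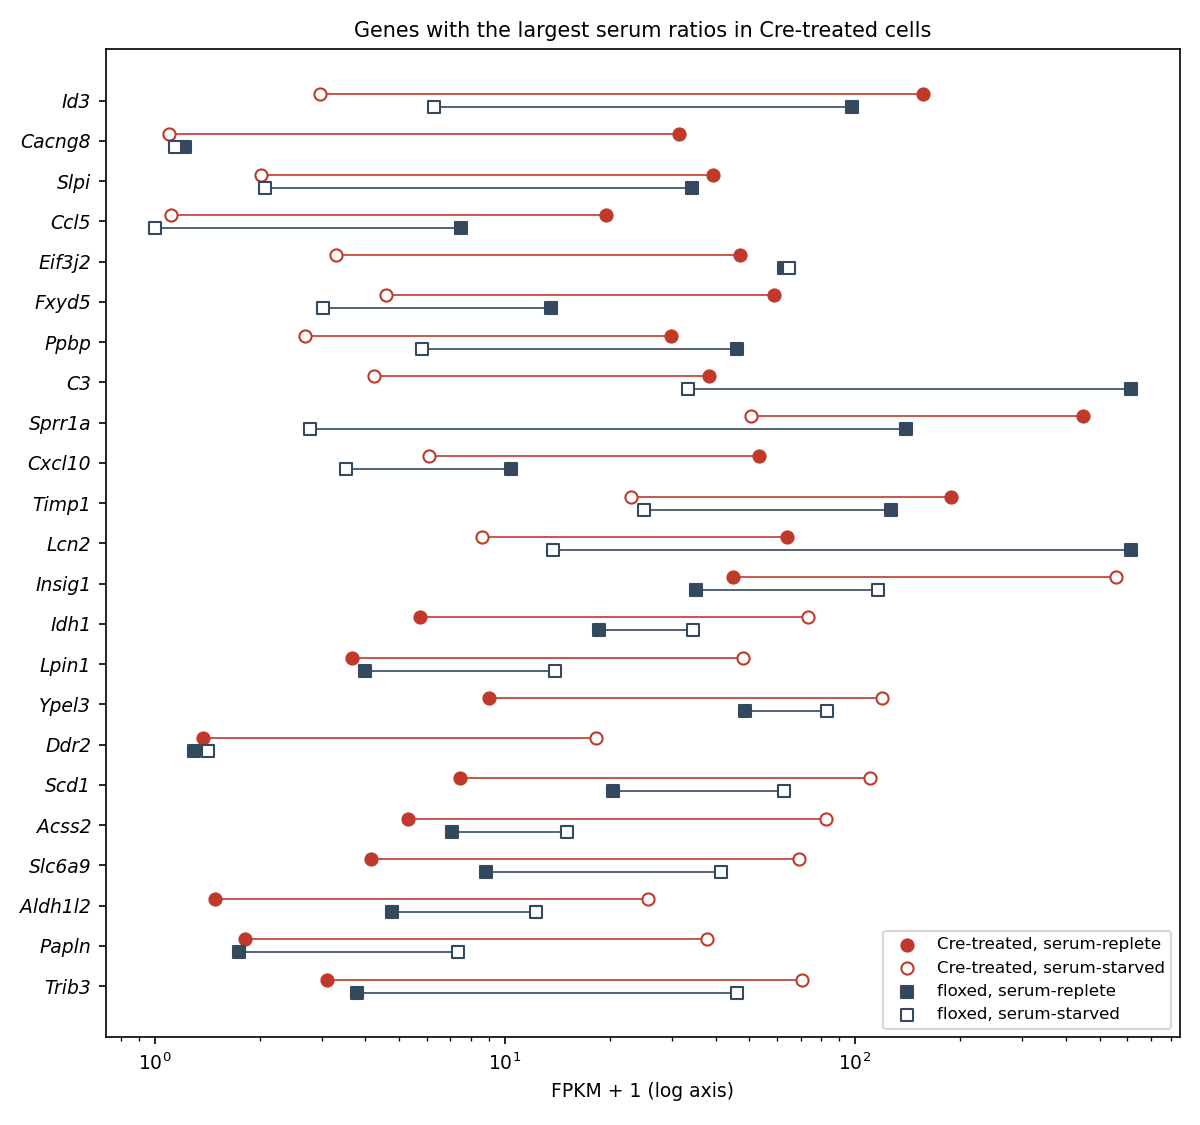
FPKM + 1 on a log axis for the genes that the naming rule placed highest and lowest by serum ratio in Cre-treated cells, leaving out those with a Cre-treated value listed at 0, with red circles for Cre-treated and dark squares for floxed cells, filled for serum-replete and open for serum-starved. Id3 spans from 155 FPKM with serum to 1.97 FPKM without it in Cre-treated cells, and Cacng8, Eif3j2 and Ddr2 show a gap in Cre-treated cells only.

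Genes driven by SRF, which serum activates through actin and RhoA, passed 2-fold in Cre-treated cells about as rarely as genes in general (4.17% of the list, against 7.20%). At least 2-fold higher were 1 of 24 in Cre-treated cells, with a median of 0.33, and 14 of 25 in floxed cells, with a median of 1.10. In 22 of the 24 genes measured in both the ratio of Cre-treated cells was the lower one. Tpm2 (β-tropomyosin) was the member past 2-fold, at 10.3 FPKM in serum-replete and 3.43 FPKM in serum-starved Cre-treated cells (ratio 1.48), against 79.3 and 4.57 FPKM in floxed cells (ratio 3.87). Acta2 (smooth muscle actin) was 387 and 296 FPKM (ratio 0.52), against 1459 and 163 FPKM (ratio 3.17). Tagln (SM22α) was 272 and 298 FPKM (ratio 0.00), against 759 and 163 FPKM (ratio 2.24), and Myl9, a myosin light chain, was 138 and 129 FPKM (ratio 0.23), against 98.6 and 14.8 FPKM (ratio 2.68). A CArG box, the SRF site, was in 6 of 22 promoter windows of this list (27.3%), against 1.57% of all windows and 1.38% of those of measured genes.

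TGF-β targets also passed 2-fold in Cre-treated cells about as rarely as genes in general. The share of the list was 4.55% in each direction, against 7.20% of all genes higher and 6.29% lower. Of 22 measured in Cre-treated cells, 1 was at least 2-fold higher with serum and 1 lower, with a median of -0.21, while of 26 in floxed cells 7 were higher and none lower, with a median of 0.55. Tnc (tenascin C) was higher in both, at 45.8 and 14.9 FPKM (ratio 1.69), against 88.0 and 7.15 FPKM (ratio 3.47). Bhlhe40, a repressor of the clock, was 21.5 and 73.9 FPKM (ratio -1.60), against 97.9 and 91.7 FPKM (ratio 0.12). Pmepa1, a feedback inhibitor of TGF-β signaling, had ratios of -0.21 and 1.23. Ctgf, a target of both TGF-β and YAP, was 1220 and 1482 FPKM (ratio -0.15), against 846 and 663 FPKM (ratio 0.37). None of 27 receptors, ligands and SMADs of the superfamily passed 2-fold in Cre-treated cells, where most genes did not either. In floxed cells 5 of 28 were higher, where 3.97% of all genes were. Smad3 was 38.4 and 63.9 FPKM in Cre-treated cells (ratio -0.59), against 103 and 49.5 FPKM in floxed cells (ratio 1.07). Within a table, the median log2 ratio of Cre-treated over floxed cells for TGF-β targets was -0.95 with serum and 0.20 without it.

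Immediate early genes, the first genes that fresh serum induces, were mostly within 2-fold in both cells. In Cre-treated cells, however, 25% of the list was at least 2-fold lower with serum, against 6.29% of all genes. The share at least 2-fold higher there was 4.17%, against 7.20% of all genes. Of 24 measured in Cre-treated cells, 1 was at least 2-fold higher and 6 were lower, with a median of -0.12, against 2 and 1 of 26 in floxed cells, with a median of 0.24. Fos was 4.62 FPKM in serum-replete and 24.99 FPKM in serum-starved Cre-treated cells (ratio -2.08), against 9.31 and 7.02 FPKM in floxed cells (ratio 0.38). Atf3 was 12.6 and 69.9 FPKM (ratio -2.25) and Klf4 2.37 and 9.72 FPKM (ratio -1.54). The later AP-1 gene Fosl1 was the member higher with serum, at 63.5 and 17.6 FPKM (ratio 1.93). ERK feedback genes had a median of -0.38 in Cre-treated cells. Of 17 measured, 1 was at least 2-fold higher and 1 lower (5.88% each, against 7.20% and 6.29% of all genes). Dusp5 was at 34.4 and 17.7 FPKM (ratio 1.06) and Etv5 at 3.90 and 12.3 FPKM (ratio -1.30), and Dusp5 was under 2-fold without centring. Of the YAP and TEAD targets, 1 of 18 was past 2-fold and higher with serum (5.56%, against 7.20% of all genes). It was Axl, a receptor tyrosine kinase, at 446 and 222 FPKM (ratio 1.14), against 246 and 128 FPKM in floxed cells (ratio 0.96).

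Several genes at the bottom of the table lay outside these lists. Papln, an extracellular matrix gene, was 0.810 FPKM in serum-replete and 36.8 FPKM in serum-starved Cre-treated cells (ratio -4.25), against 0.742 and 6.35 FPKM in floxed cells. The mitochondrial folate enzyme Aldh1l2 was 0.487 and 24.7 FPKM (ratio -3.98), and the glycine transporter Slc6a9 was 3.16 and 68.2 FPKM (ratio -3.92). Lpin1, a phosphatidate phosphatase, was 2.66 and 47.0 FPKM (ratio -3.58), and Idh1, cytosolic isocitrate dehydrogenase, was 4.72 and 72.7 FPKM (ratio -3.56). In floxed cells Papln (-2.06), Aldh1l2 (-1.34), Slc6a9 (-2.21) and Lpin1 (-1.78) were also at least 2-fold lower with serum, and Idh1 was at -0.87. Ypel3 was 8.02 and 118 FPKM (ratio -3.59), against 47.5 and 82.2 FPKM in floxed cells (ratio -0.76). The collagen receptor Ddr2 was 0.374 and 17.2 FPKM (ratio -3.60), and it was under 1 FPKM in both floxed libraries, at 0.294 and 0.424.

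The largest differences between the responses of Cre-treated and floxed cells fell mostly on loci with a value listed at 0, 12 of the 16 named by the rule. A listed 0 can be a failed estimate, since ubiquitous genes such as Sept2 (203 FPKM in serum-replete Cre-treated cells and 0 in the other 3 libraries) and Sept9 (0 and 40.4 FPKM, against 74.6 and 38.0 FPKM) are among them, and no fold is given for those. Of the 15 highest and 15 lowest genes in Cre-treated cells, 3 and 4 had a Cre-treated value of that kind: Sept2, Gnl3l and Gm17571, and Gm17364, Syne2, Sept9 and Gm3625. The differences named with 4 values above 0 were those of Cacng8, a calcium channel subunit gene (30.5 and 0.0986 FPKM, ratio 4.98, against 0.221 and 0.141 FPKM), and Eif3j2, a translation factor gene with a near-identical paralog (46.1 and 2.31 FPKM, ratio 3.96, against 61.7 and 63.7 FPKM), which were higher, and of Prmt2 and Tubb3, which were lower. Prmt2, an arginine methyltransferase gene, was 122 and 432 FPKM in Cre-treated cells (ratio -1.68), against 288 and 18.5 FPKM in floxed cells (ratio 3.91). Tubb3 (βIII-tubulin) was 0.183 and 4.77 FPKM (ratio -2.15), against 13.7 and 1.52 FPKM (ratio 2.56).

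**Figure D4:**
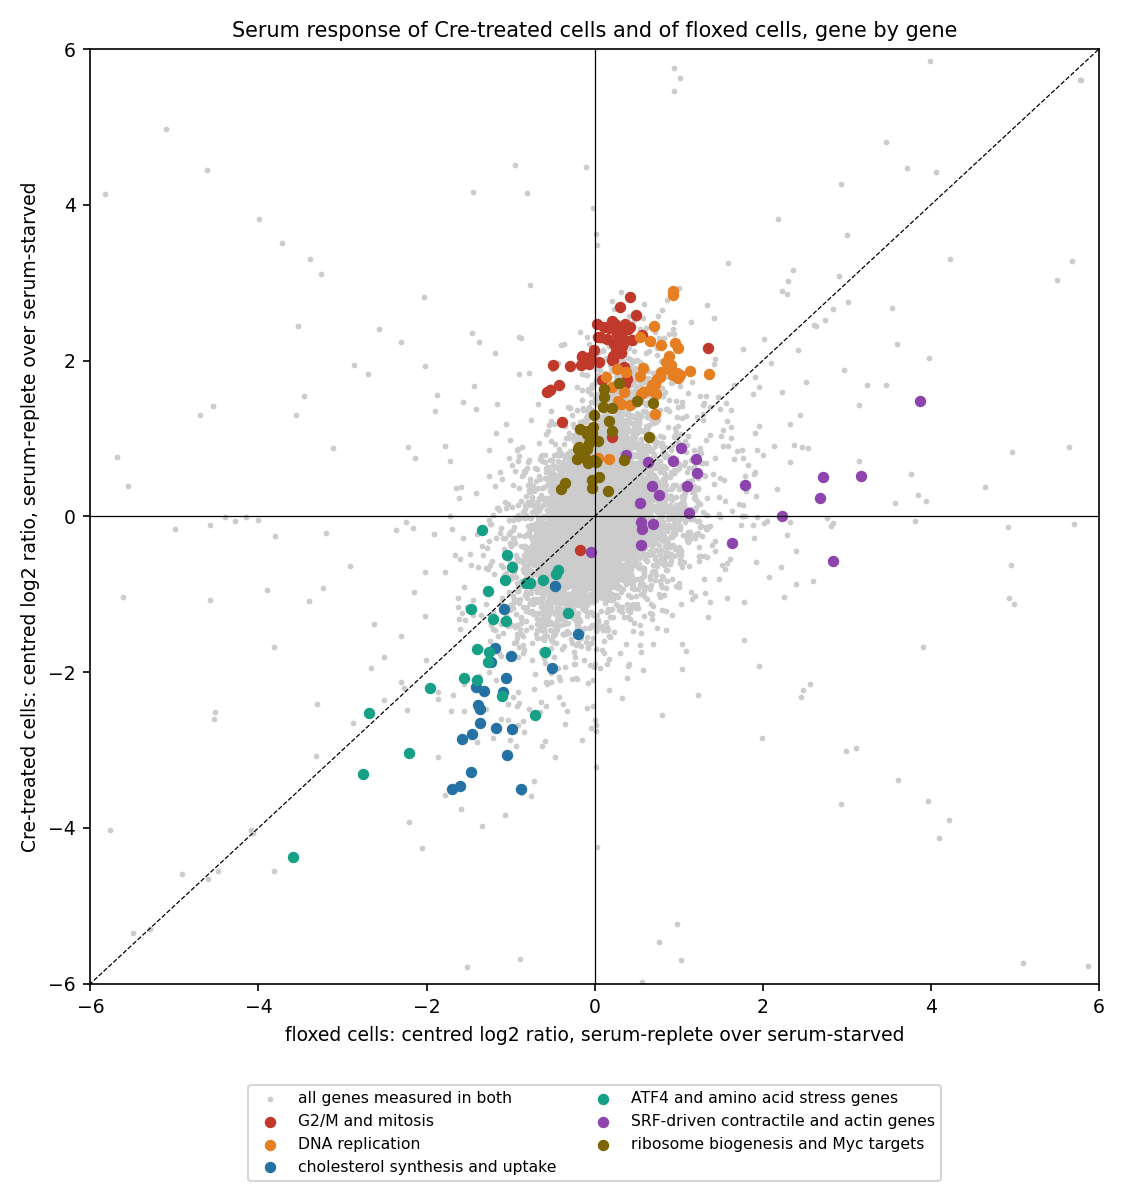
Centred log2 ratio of serum-replete over serum-starved libraries in Cre-treated cells (vertical axis) against the same ratio in floxed cells (horizontal axis) for the 11750 genes measured in both, with 6 lists in color, a dashed line where the responses are equal, and 34 genes beyond the axis limit of 6 not drawn. G2/M genes lie almost straight above the origin, sterol genes lie below the dashed line with both ratios negative, ATF4 genes lie along it, and SRF-driven genes extend to the right.

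Across all 887 genes at least 2-fold higher in Cre-treated cells, 731 had a ratio above 0 in floxed cells, with a median of 0.28 there. Across the 775 at least 2-fold lower, 532 had a ratio below 0 in floxed cells, with a median of -0.30. These counts include loci not measured in floxed cells. A locus at 0 in both floxed libraries, such as Sept2, gets a ratio of 0.021 from centring alone. Such loci raise the 731 and lower the 532. Centring also puts the median of all measured genes at 0. Single protein-coding genes made up 642 of the 887 and 550 of the 775, and 133 and 128 were listed at 0 in the lower library.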

How the data were processed

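Total RNA of 4 cell populations, 1 library each, was sequenced by the study. The authors aligned reads to the mouse genome and deposited FPKM values made with Cuffdiff, 1 table per medium, each scaled on its own. TopHat2, Cufflinks and mm10 are named in the submitters' processing notes; for versions, nothing is given in the sources used here. The tables also hold the authors' own fold changes and p-values, which were not used. The tables were joined on locus, and log2((FPKM + 1)/(FPKM + 1)) was centred on its median over the genes reaching 1 FPKM with or without serum. The calculation was done with Python 3.11.15, pandas 2.3.3 and numpy 2.4.6 and was tested on simulated data. Alternatives were other pseudocounts, filters, centrings and locus types. No test was run, since each condition was 1 library. From the steps between low FPKM values, with 200 bp fragments assumed, depths were about 32200000 to 41300000 fragments, but only 65.7% to 75.1% of low values lay within 10% of a whole step, so no counts or counting intervals were derived. Gene members and lists were chosen with earlier results of these data known. Named genes were Tgfbr2 and genes the study centers on, the 15 highest and 15 lowest ratios among protein-coding genes of unshared loci that reached 5 FPKM, up to 4 genes past 2-fold in each list, and the 8 largest differences in each direction between Cre-treated and floxed cells; other list members were named after their values were seen. Promoters were matched to RefSeq by symbol, and 8355 measured genes had one. Some genes that the rule names are not reported here.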

Additional observations from a re-analysis of the deposited data

Results flagged for a closer look

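Given here are lists whose medians lay at least 0.2 to either side of 0, on opposite sides in Cre-treated and floxed cells, and named genes at least 2-fold changed in opposite directions with no value listed at 0, as centred log2 ratios of serum-replete over serum-starved libraries. With 1 library a condition, none of these differences was tested. The median of TGF-β-induced targets was -0.213 in Cre-treated and 0.550 in floxed cells. For collagens, laminins and basement membrane genes the medians were -0.233 (20 genes) and 0.254 (25 genes), and for integrins -0.356 (12) and 0.531 (14). For Notch receptors, ligands and targets they were -0.236 (6) and 0.425 (7). Under other settings each of these lists had a median in Cre-treated cells less than 0.2 below 0. The ranges there were -0.388 to -0.163 for TGF-β-induced targets and -0.410 to -0.082 for the collagen list. They were -0.533 to -0.111 for integrins and -0.412 to 0.049 for the Notch list. Lists with smaller opposite medians are not included, and 73 loci in all were called in opposite directions. Among single genes, Gpx3, the extracellular glutathione peroxidase, was at -1.586 in Cre-treated and 1.783 in floxed cells. Its levels were far apart, at 5.52 FPKM in serum-replete and 20.5 FPKM in serum-starved Cre-treated cells, against 34170 and 10070 FPKM in floxed cells. Prmt2 was at -1.680 and 3.909, and Tubb3 at -2.153 and 2.562.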

How the results depend on the processing

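No paired analysis was possible because each condition was 1 library and the labels give no shared replicate numbers, and for the same reason no replicate could be left out. Under the alternatives of pseudocount, filter, centring and locus type, genes at least 2-fold higher in Cre-treated cells numbered 637 to 1067 (887 as reported) and those lower 555 to 1083 (775 as reported). In floxed cells protein-coding genes alone gave 308 higher and 160 lower, against 500 and 336, and leaving out loci listed at 0 in one library, an alternative chosen after seeing the data, gave 202 lower. Calls in Cre-treated cells that were higher made up 42.5% without centring, 42.8% with centring on housekeeping genes and 39.3% after rescaling to one sum, against 53.4%. No list or gene past 2-fold changed direction, but list medians near 0 crossed it, among them those of CDK inhibitors (-0.453 to 0.484), YAP and TEAD targets (-0.144 to 0.058), the Notch list (-0.412 to 0.049) and, for markers, the proximal tubule list (-1.575 to 0.133). Rescaling put Hspe1 (0.96), Hspd1 (0.90), Dusp5 (0.88) and Axl (0.96) under 2-fold, and the median of G1/S regulators at 0.97. The median of LXR targets was -0.20 with no filter on low values. Spread between replicates is unknown for every value.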

Other observations

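None of 36 nuclear-encoded oxidative phosphorylation genes passed 2-fold in Cre-treated cells. Their median was 0.27, inside the quartiles of all genes and between 0.097 and 0.288 under other settings, against -0.12 in floxed cells. Circadian clock genes had 6 of 16 at least 2-fold lower with serum in Cre-treated cells (37.5%, against 6.29% of all genes) and none higher, with a median of -0.57. In floxed cells none was lower and 1 was higher, with a median of -0.16. The clock repressor Ciart (ratio -1.69), Bhlhe40 (-1.60) and Nfil3 (-1.15) were among the lowest in Cre-treated cells. Primary cilium genes had a median of -0.24 over 38 genes in Cre-treated cells. Of these, 2 were at least 2-fold lower, a share of 5.26% against 6.29% of all genes. They were Pkhd1 (-1.23), the gene of recessive polycystic kidney disease, and the BBSome gene Bbs2 (-1.23).

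Selenoprotein genes, a set picked after its values were seen, held several very high FPKM values, although Gpx3 (5.52 FPKM), Dio3 (4.04 FPKM) and Sephs2 (46.4 FPKM) were far lower in serum-replete Cre-treated cells, and ratios in the set went both ways. Gpx1, a cytosolic glutathione peroxidase, was 817 FPKM in serum-replete and 368 FPKM in serum-starved Cre-treated cells (ratio 1.28), against 696 and 303 FPKM in floxed cells (ratio 1.22). The mitochondrial thioredoxin reductase Txnrd2 was 618 and 216 FPKM (ratio 1.65), against 622 and 363 FPKM (ratio 0.80). Txnrd3 was 1338 and 3756 FPKM in Cre-treated cells (ratio -1.35), and its ratio in floxed cells was -1.05. Gpx4, which reduces lipid peroxides, was within 2-fold at 5472 and 6646 FPKM (ratio -0.15), against 5378 and 5150 FPKM (ratio 0.08).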
